A study of Homo sapiens with 16 samples.

Results

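Peaks on human chromosomes 4, 13 and 18 were selected from 12 ChIP-seq peak lists of LoVo cells by their chromosome alone. They numbered 13025 of the 146596 listed peaks and were compared with the 130742 peaks on the other 19 autosomes. The remaining 2829 peaks lay outside the autosomes. LoVo is an established human colon adenocarcinoma line. The lists held 3 transcription factors (HNF4A, KLF5 and MYC), the cohesin subunit RAD21, the insulator protein CTCF and histone H3 as a chromatin control. Early S-phase cells had spent 12 h in 2 mM thymidine, 8 h without it and then 12 h in thymidine again. The M-phase cells had been held for 12 h in 2 mM thymidine and then for 8 h in 200 ng/ml nocodazole. Controls were rabbit IgG, and goat IgG for CTCF. Each target had 1 library in each phase, so no difference was set against a spread between samples and no test across samples was possible. Intervals are 95% intervals over peaks. They cover counting error only, and are too narrow where neighbouring peaks share a regulatory region. The spread over the 19 other autosomes is therefore given beside the main values, although chromosomes are not replicates.

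HNF4A is a nuclear receptor that maintains gut and liver epithelium, KLF5 is a zinc-finger factor of proliferating crypt cells, and MYC is a growth-promoting factor that binds DNA with its partner MAX. Cohesin is a ring that embraces sister chromatids and extrudes chromatin loops, and it gathers where CTCF is bound. Transcription factors bind mainly at promoters and enhancers, which are sparser where genes are few, while cohesin and CTCF also mark loop anchors between genes. Chromosomes 4, 13 and 18 are known for large late-replicating regions and for a position near the nuclear edge.

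The description of these chromosomes as gene-poor held in the gene counts. RefSeq lists 1377 protein-coding genes on them, or 3.79 per Mb of the span covered by peaks, against 7.33 per Mb on the other autosomes. Chromosomes 13, 18 and 4, with 3.52, 3.55 and 4.02 genes per Mb, had the lowest values of the 22 autosomes. The nearest other autosome was chromosome 8 with 4.89 genes per Mb, and the highest was chromosome 19 with 22.8. The 3 chromosomes spanned 191, 96.0 and 76.0 Mb in the order 4, 13 and 18, together 13.05% of the autosomal span and 7.20% of its genes.

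The 5 proteins were all sparser per Mb on these chromosomes in S phase, KLF5 and MYC most and RAD21 and HNF4A least. KLF5 had 390 peaks there, or 1.07 per Mb, against 2.27 per Mb elsewhere, a density ratio of 0.473 (0.426 to 0.524). MYC had 899 peaks, or 2.47 per Mb against 4.49, a ratio of 0.551 (0.514 to 0.590). CTCF followed with 2355 peaks, 6.48 per Mb against 10.5, and a ratio of 0.619 (0.593 to 0.645). These 3 intervals did not reach those of the remaining proteins. HNF4A had 1467 peaks, 4.04 per Mb against 5.68, and a ratio of 0.711 (0.673 to 0.750). RAD21 had 2643 peaks, 7.28 per Mb against 9.88, and a ratio of 0.736 (0.707 to 0.766), so that its interval overlapped that of HNF4A. The H3 control list was also short, with 277 peaks, 0.763 per Mb against 1.21, and a ratio of 0.628 (0.553 to 0.710). Per H3 peak in place of per Mb, the ratio stayed below 1 for KLF5 (0.753, 0.642 to 0.884) and turned above 1 for RAD21 (1.17, 1.03 to 1.33). The intervals for MYC (0.878, 0.762 to 1.01), CTCF (0.985, 0.865 to 1.12) and HNF4A (1.13, 0.989 to 1.29) then include 1. The order of the 5 proteins does not depend on that choice, since each ratio is divided by the same number. What sets the H3 density was not tested.

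Each of the 3 chromosomes showed the thinning on its own. Chromosome 13 had the lowest S-phase density of all 22 autosomes for HNF4A (3.82 per Mb), KLF5 (0.812), MYC (2.44), RAD21 (6.86) and CTCF (5.95). On chromosome 4 the values were 4.10, 1.10, 2.44, 7.28 and 6.55 per Mb in the same order, and on chromosome 18 they were 4.16, 1.33, 2.62, 7.78 and 6.98. For MYC and CTCF no other autosome fell below the highest of the 3. For RAD21 1 other autosome did (chromosome 9), for HNF4A 2 (8 and 21) and for KLF5 3 (5, 8 and 21). H3 was the exception, since chromosomes 4, 13 and 18 held 0.586, 0.833 and 1.12 H3 peaks per Mb and 9 other autosomes lay below the highest of them.

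**Figure D1:**
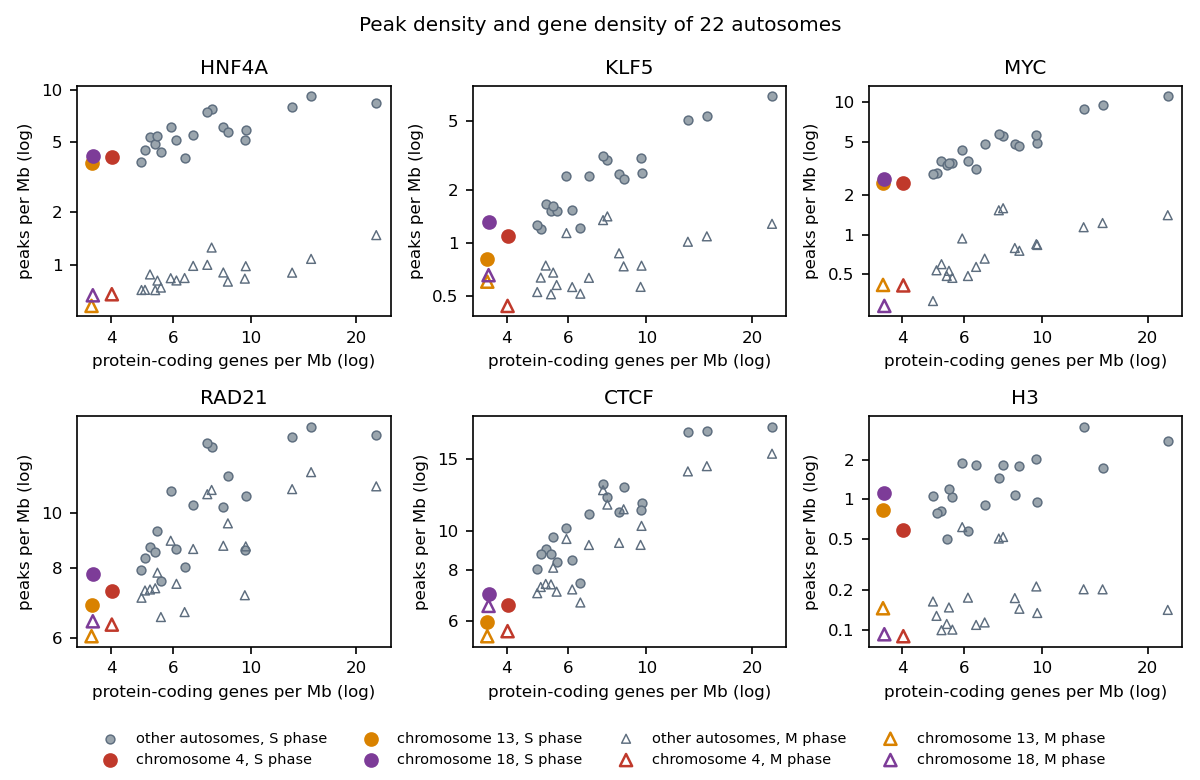
Peaks per Mb (log axis) against RefSeq protein-coding genes per Mb (log axis) for the 22 autosomes, 1 panel per target; filled circles are S phase, open triangles M phase, and chromosomes 4, 13 and 18 are coloured. The 3 coloured chromosomes lie at the gene-poor end, and in the S-phase MYC and CTCF panels they lie below all 19 others.

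Across the 22 autosomes, S-phase density rose with gene density. Spearman's rho was 0.93 for MYC, 0.89 for CTCF, 0.88 for KLF5, 0.83 for RAD21, 0.81 for HNF4A and 0.63 for H3. Without chromosomes 4, 13 and 18 the values over the other 19 were 0.89, 0.84, 0.85, 0.75, 0.75 and 0.62. These are descriptions over chromosomes that share a library and the same gene counts. Per protein-coding gene, however, these chromosomes held more RAD21 peaks than the others (1.92 against 1.35), more HNF4A peaks (1.07 against 0.775) and more CTCF peaks (1.71 against 1.43). MYC (0.653 against 0.613) and KLF5 (0.283 against 0.310) stood nearer to the gene number. The HNF4A value was above the highest other autosome (1.04) on chromosomes 13 (1.09) and 18 (1.17) but not on chromosome 4 (1.02).

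In M phase each protein was again sparser per Mb. The density ratio was 0.740 for HNF4A (0.645 to 0.847, 237 peaks), 0.668 for KLF5 (0.573 to 0.776, 192 peaks), 0.516 for MYC (0.432 to 0.613, 141 peaks), 0.754 for RAD21 (0.722 to 0.788, 2283 peaks) and 0.642 for CTCF (0.613 to 0.671, 2103 peaks). KLF5 differed most between the phases, from 0.473 to 0.668. With an FDR under 5%, which 28 of the 192 M-phase KLF5 peaks reached, its M-phase ratio was 0.508 (0.333 to 0.747). The S-phase KLF5 ratio stayed at 0.473 under that limit. The M-phase KLF5 label gives no peak number, while the M-phase rabbit IgG label gives 2118, the length of the KLF5 list, and that mapping was not settled further. With 38 peaks, M-phase H3 had a ratio of 0.508 (0.356 to 0.708). Scaled by these 38 peaks, the ratios were 1.48 for RAD21 (1.06 to 2.07) and 1.46 for HNF4A (1.02 to 2.08). The intervals for MYC (1.02, 0.7001 to 1.47), KLF5 (1.31, 0.916 to 1.89) and CTCF (1.26, 0.904 to 1.76) include 1. The scaled values depend on the comparison chromosomes. Against the other autosomes without 5, 7, 12 and 15, the unscaled M-phase ratios were 0.726 for H3 (0.503 to 1.02), 0.777 for RAD21 and 0.751 for HNF4A. The RAD21 and HNF4A ratios then lay close to the H3 ratio and within its interval, so no excess per H3 peak is shown for that comparison. The scaled ratios themselves were not recomputed for it.

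Relative to RAD21, the factors were under-represented on chromosomes 4, 13 and 18, but relative to CTCF they were not. There were 1.04 factor peaks per RAD21 peak in S phase against 1.26 elsewhere, a ratio of 0.828 (0.783 to 0.876). Chromosomes 4, 13 and 18 held 1.05, 1.03 and 1.04, and chromosomes 5 and 8 also lay below the highest of these, chromosome 8 at 1.01. Per CTCF peak there were 1.17 against 1.19, a ratio of 0.986 whose interval of 0.931 to 1.04 includes 1. The sum hid opposite members. HNF4A was over-represented against CTCF, with 0.623 HNF4A peaks per CTCF peak against 0.542, a ratio of 1.15 (1.07 to 1.23), while KLF5 (0.765, 0.684 to 0.854) and MYC (0.891, 0.822 to 0.965) were under-represented. For HNF4A per CTCF, chromosome 13 (0.643) lay above the highest other autosome (0.638, chromosome 12), but chromosomes 4 (0.626) and 18 (0.595) did not. The MYC interval includes 1 with an FDR under 5% (0.971), without chromosome 4 (0.917) and against the other autosomes without 16, 17, 19 and 22 (0.940). Against RAD21, HNF4A kept pace (ratio 0.965, 0.903 to 1.03), whereas KLF5 (0.642) and MYC (0.748) fell behind.

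CTCF itself was scarce against RAD21. Chromosomes 4, 13 and 18 held 0.900, 0.866 and 0.897 CTCF peaks per RAD21 peak in S phase. The lowest other autosome held 0.926 (chromosome 21) and their median was 1.06, so that the 3 values lay below all 19. The pooled ratio was 0.840 (0.793 to 0.891). MYC against HNF4A gave the other balance with no overlap, at 0.594, 0.638 and 0.630 MYC peaks per HNF4A peak against at least 0.640 elsewhere (chromosome 10), although chromosomes 13 and 10 were nearly level. In M phase the pooled CTCF-to-RAD21 ratio was 0.851 (0.799 to 0.905), but chromosome 18, at 1.01, lay within the range of the others. Factors per RAD21 peak gave 0.858 (0.780 to 0.945) in M phase, with an interval that includes 1 without chromosome 4 (0.890, 0.777 to 1.02) and with an FDR under 5% (0.752, 0.533 to 1.06), and the ratio for KLF5 alone (0.886, 0.759 to 1.03) had an interval that includes 1.

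A lower share of RAD21 peaks carried CTCF on these chromosomes, and a higher share of CTCF peaks carried RAD21. Of the S-phase RAD21 peaks, 68.9% (1822) overlapped a CTCF peak by at least 1 bp, against 77.2% on the other autosomes, a difference of -8.24 percentage points (-10.1 to -6.42). Over all chromosomes the share was 76.2%. On chromosomes 4, 13 and 18 it was 71.0, 65.4 and 67.9%, and the lowest other autosome stood at 68.6% (chromosome 21). Of the S-phase CTCF peaks, 76.4% (1799) overlapped RAD21 against 71.5%, a difference of 4.87 points (3.03 to 6.63), with 71.4% over all chromosomes. Only chromosome 4 (78.1%) lay above the highest other autosome (77.7%, chromosome 12), while chromosomes 13 (74.3%) and 18 (74.6%) lay within the range of the others. When both peaks had to overlap by 50%, the first difference shrank to -2.95 points and the second grew to 7.47, so their sizes rest on the overlap asked for. With scores of at least 100 in both lists the first was -12.8 points, and without chromosome 4 the second was 2.89. The M-phase lists gave the same directions. RAD21 peaks with CTCF came to 65.0% against 72.7% (-7.75 points, -9.83 to -5.73, 71.4% over all chromosomes). CTCF peaks with RAD21 came to 70.6% against 67.5% (3.09 points, 1.01 to 5.10, 67.6% over all chromosomes). The latter interval includes 0 without chromosome 4 (2.07 points, -0.878 to 4.89) and with an FDR under 5% (3.49 points, -0.366 to 7.07).

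**Figure D2:**
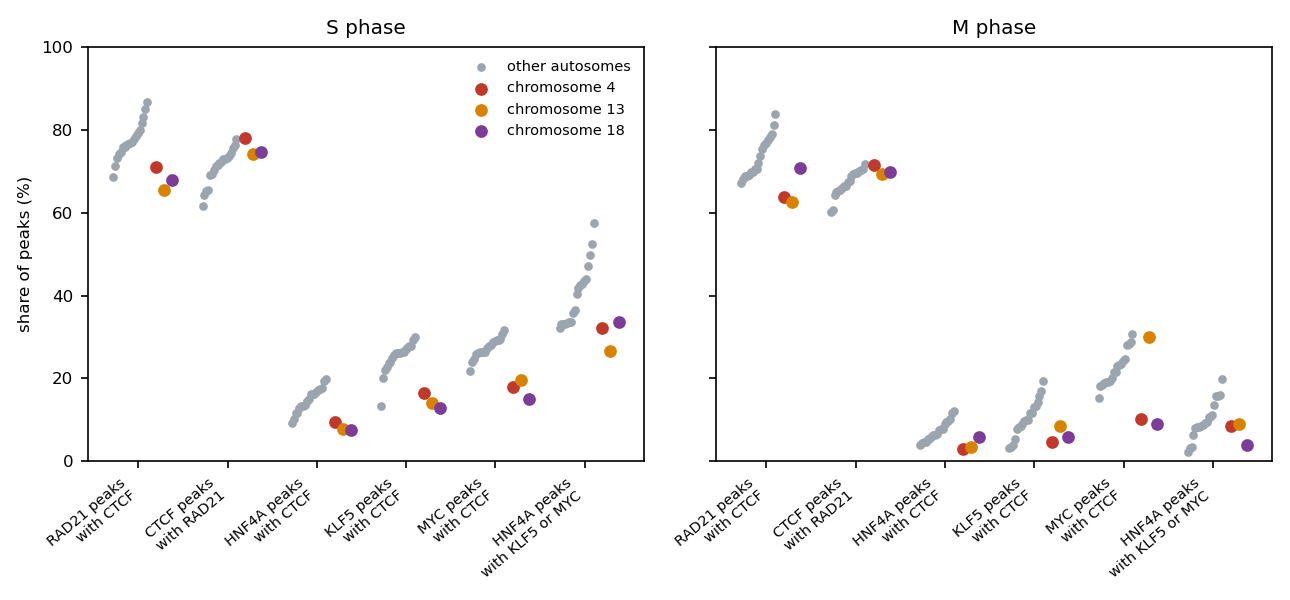
Share of peaks (percent, vertical axis) that overlap a peak of another protein by at least 1 bp, per autosome, in S phase (left) and M phase (right); grey points are the 19 other autosomes sorted by value and coloured points are chromosomes 4, 13 and 18. In S phase the MYC peaks with CTCF, at 15.1 to 19.7%, lie below all grey points (21.7% or more), whereas M-phase shares of the factors rest on few peaks and scatter.

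Factor peaks on chromosomes 4, 13 and 18 met CTCF less often. Of the S-phase MYC peaks, 17.8% (160 of 899) overlapped CTCF against 27.7% elsewhere, a difference of -9.94 points (-12.5 to -7.18), with 26.9% over all chromosomes. The values of 18.03, 19.7 and 15.1% on chromosomes 4, 13 and 18 lay below the lowest other autosome (21.7%, chromosome 21). KLF5 peaks overlapped CTCF in 15.1% (59 of 390) against 26.1%, a difference of -10.9 points (-14.4 to -6.89), with 25.4% over all chromosomes. Its values of 16.6, 14.1 and 12.9% on chromosomes 4, 13 and 18 overlapped the range of the others, where chromosome 21 stood at 13.3%. For HNF4A the shares were 8.73% (128 of 1467) and 14.9%, a difference of -6.15 points (-7.62 to -4.49), with 14.3% over all chromosomes. Chromosomes 13 (7.90%) and 18 (7.59%) lay below the lowest other autosome (9.27%, chromosome 21), but chromosome 4 (9.57%) did not. In M phase the same overlaps were 15.6% against 22.6% for MYC (22% over all chromosomes), 6.25% against 10.3% for KLF5 (10%) and 3.797% against 7.17% for HNF4A (6.84%). These rested on 22, 12 and 9 peaks, and the intervals of the differences include 0.

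Overlap of the factors with RAD21 differed little. It came to 16.2% against 18.5% for HNF4A (-2.26 points, -4.18 to -0.186, 18.1% over all chromosomes), a difference whose interval includes 0 without chromosome 18 (-1.63 points), with scores of at least 100 (-2.14) and against the other autosomes without 5, 7, 12 and 15 (-0.675). The differences for KLF5 (26.4% against 27.5%, 27.3% over all chromosomes) and MYC (25.5% against 27.2%, 26.8% over all chromosomes) had intervals that include 0, from -5.42 to 3.61 and from -4.57 to 1.36 points. At either RAD21 or CTCF, HNF4A reached 19.8% against 24.0% (23.5% over all chromosomes), KLF5 31.8% against 38.1% (37.7%) and MYC 32.3% against 38.8% (38.1%). The KLF5 difference of -6.35 points (-11.0 to -1.402) became -11.3 without chromosome 4, where the share was 36.0%. Its interval includes 0 without chromosome 13 (-5.13) or 18 (-4.58), with an FDR under 5% (-4.84), against the other autosomes without 5, 7, 12 and 15 (-4.34) and for summits within 1000 bp (-2.47).

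Seen from the architectural proteins, fewer sites carried a factor. Of the S-phase CTCF peaks, 9.47% (223) overlapped any of the 3 factors against 15.7% elsewhere, a difference of -6.23 points (-7.43 to -4.90), with 15% over all chromosomes. Chromosomes 4, 13 and 18 stood at 9.82, 10.5 and 7.53%, below the lowest other autosome at 11.6% (chromosome 20). RAD21 peaks overlapped a factor in 13.9% (368) against 18.1%, a difference of -4.15 points (-5.51 to -2.69), with 17.4% over all chromosomes. In M phase both shares were small, at 1.90% against 3.24% for CTCF (3.09% over all chromosomes) and 2.98% against 4.45% for RAD21 (4.23% over all chromosomes). With scores of at least 100 or an FDR under 5% the intervals of both M-phase differences include 0, as does that of CTCF without chromosome 4 (-0.695 points). Overlap with H3 was rare in S phase, from 0.136% of HNF4A peaks to 1.11% of MYC peaks on chromosomes 4, 13 and 18 (0.428 and 0.955% over all chromosomes).

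HNF4A more often stood by itself. Of its S-phase peaks on chromosomes 4, 13 and 18, 60.6% (889) overlapped none of the other 4 proteins against 52.1% elsewhere, a difference of 8.52 points (5.86 to 11.1), with 53.3% over all chromosomes. Chromosomes 4, 13 and 18 stood at 59.8, 63.8 and 58.9%, and the highest other autosome at 59.7% (chromosome 10). Its overlap with KLF5 or MYC was 31.1% (456) against 40.0%, a difference of -8.89 points (-11.3 to -6.34), with 38.8% over all chromosomes. Here the 3 chromosomes had 32.1, 26.7 and 33.5%, and the lowest other autosome 32.2% (chromosome 3). In both shares only chromosome 13 stood clearly apart from the other autosomes. KLF5 peaks were met by HNF4A or MYC as often as elsewhere within the interval, at 80.3% (313) against 79.0% (1.24 points, -3.13 to 5.05, 78.9% over all chromosomes). The few KLF5 peaks thus mostly lay where another factor was bound, here as on the other autosomes.

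Chaining the S-phase peaks of the 5 proteins at gaps of at most 1000 bp gave 4525 sites on chromosomes 4, 13 and 18. The thinning grew with the number of proteins at a site. The density ratio was 0.6995 (0.678 to 0.721) for all sites, 0.648 (0.621 to 0.676) for sites of 2 or more proteins, 0.475 (0.428 to 0.525) for 3 or more, and 0.436 (0.362 to 0.521) for 4 or more. Sites with all 5 proteins numbered 22, on chromosomes 4 (12), 13 (5) and 18 (5), against 531 elsewhere, a ratio of 0.276 (0.172 to 0.422). Sites held by RAD21 with none of the other 4 were the kind not thinned, with 560 sites, 1.54 per Mb against 1.43, and a ratio of 1.08 (0.984 to 1.18). The remaining single-protein and paired kinds lay between. HNF4A alone gave 0.836 (0.776 to 0.899, 814 sites) and RAD21 with CTCF gave 0.715 (0.679 to 0.753, 1606 sites), while MYC alone gave 0.664, CTCF alone 0.567 and KLF5 alone 0.510. The 3 chromosomes were not alike for RAD21 alone, at 1.37, 1.72 and 1.76 sites per Mb on 4, 13 and 18, and without chromosome 4 the ratio was 1.22 (1.08 to 1.37). In M phase the ratio was 1.01 (0.929 to 1.09) for RAD21 alone and 0.418 (0.298 to 0.571) for 3 or more proteins. No M-phase site on these chromosomes held all 5 proteins, and 2 did elsewhere.

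**Figure D3:**
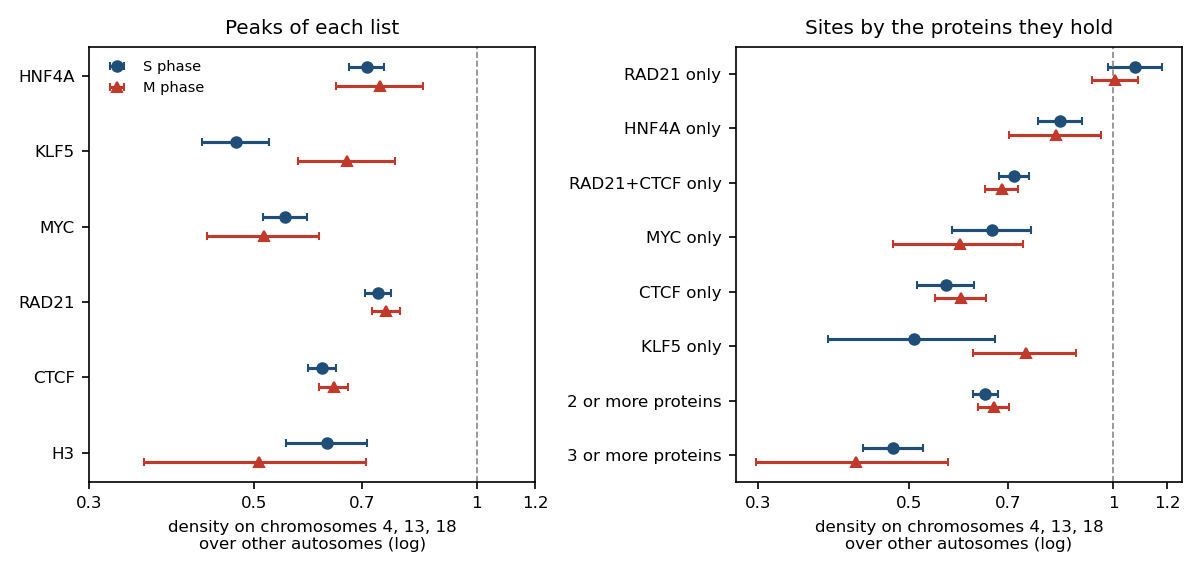
Density on chromosomes 4, 13 and 18 divided by density on the other autosomes (log axis) with 95% intervals over peaks, for each list (left) and for sites grouped by the proteins they hold (right); circles are S phase, triangles M phase, and the dashed line marks equal density. The S-phase ratio runs from 0.473 for KLF5 to 0.736 for RAD21 on the left, and from 0.475 for 3 or more proteins to 1.08 for RAD21 alone on the right.

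Neighbouring peaks of a list lay farther apart on these chromosomes. The median distance between neighbouring summits in S phase was 74312 bp for RAD21 against 51463 bp elsewhere (ratio 1.44), 73506 against 41952 bp for CTCF (1.75), 115447 against 62064 bp for MYC (1.86), 264703 against 107941 bp for KLF5 (2.45) and 69397 against 56222 bp for HNF4A (1.23). The quartiles show the breadth of these distributions, for RAD21 from 25754 to 163395 bp on chromosomes 4, 13 and 18. For RAD21 and CTCF the medians of the 3 chromosomes lay above those of all 19 others, from 71415 to 78846 bp for RAD21 and from 67847 to 78142 bp for CTCF, where the highest others were 69451 and 64855 bp, both on chromosome 8. Close neighbours were rarer too. Gaps of at most 10000 bp made up 10.5% of CTCF gaps against 17.1%, 5.68% against 11.1% for KLF5 and 16.3% against 18.1% for HNF4A. With scores of at least 100 the KLF5 ratio was 4.28. H3 was the exception with a median of 205082 against 222603 bp. Where a factor bound, the nearest RAD21 or CTCF summit was also farther away, at a median of 15708 against 11064 bp for HNF4A, 8995 against 5123 bp for KLF5 and 10073 against 5133 bp for MYC. The same held for H3 peaks, at 31443 against 18157 bp, a ratio of 1.73 against 1.42 for HNF4A, 1.76 for KLF5 and 1.96 for MYC.

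**Figure D4:**
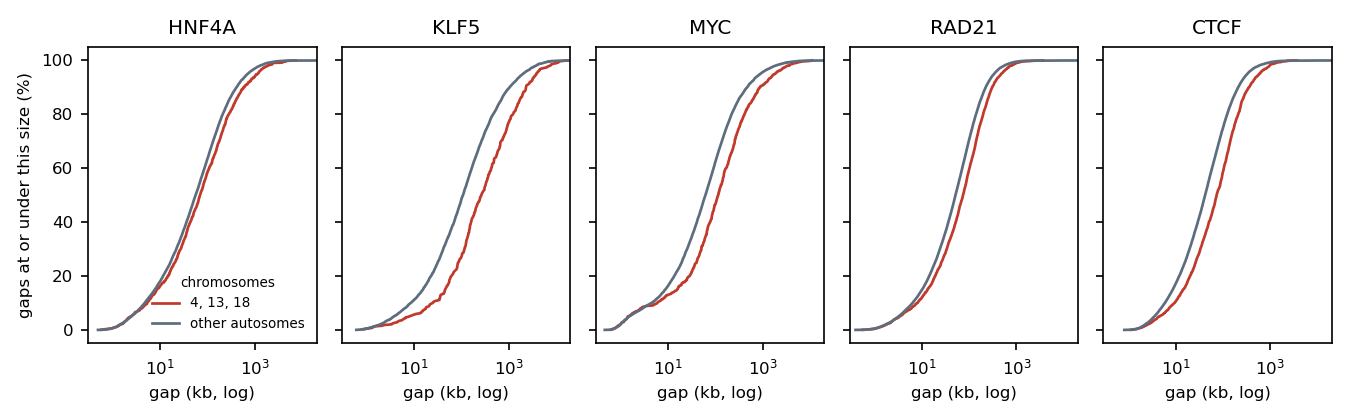
Cumulative share (percent, vertical axis) of the distances between neighbouring S-phase summits of 1 list, by distance in kb (log axis), on chromosomes 4, 13 and 18 (red) and on the other 19 autosomes (grey). The red curve lies to the right over most of its length, most for KLF5, with medians of 264703 and 107941 bp, and least for HNF4A, with 69397 and 56222 bp.

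Windows of 1 Mb show how the peaks were distributed. Of the 363 windows on chromosomes 4, 13 and 18, 16.8% (61) held no S-phase factor peak, against 14.2% elsewhere, while 10.2% held 20 or more factor peaks against 22.3%. Windows without any RAD21 or CTCF peak were fewer than elsewhere, at 2.75% against 4.98%. Most of them held none of the 5 proteins, at 2.20% against 4.64%, and these also count among the windows without a factor peak. Stretches over 1 Mb without any listed peak came to 6.41, 5.21 and 3.04 Mb on chromosomes 4, 13 and 18. On the other autosomes they ran from 0 (chromosomes 15, 17 and 22) to 30.7 Mb (chromosome 9). How far the shares of empty windows follow such stretches was not tested. Windows with RAD21 or CTCF but no factor were more frequent, at 14.6% against 9.58% in S phase and 30.6% against 19.7% in M phase. In windows matched by their number of CTCF peaks, the factors were about as many as elsewhere in the 3 middle groups of windows. With 6 to 10 CTCF peaks, 110 windows held on average 8.95 factor peaks against 8.69. With 3 to 5, 83 windows held 4.34 against 3.76, and with 11 to 20, 71 windows held 16.6 against 17.7. Windows with 1 or 2 CTCF peaks held 1.15 against 1.68 factor peaks over 71 windows. The 23 windows without CTCF held more, 0.826 against 0.315, and the 5 windows with 21 or more held 26.4 against 33.97.

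Some stretches held cohesin and CTCF over many Mb while 1 of the factors had no S-phase peak there. The longest without an S-phase KLF5 peak was chr13:76981157-94051589 (hg18), 17.1 Mb, which held 65 RAD21, 45 CTCF, 33 HNF4A and 12 MYC peaks. Of these RAD21 peaks, 49 were found again in M phase, and the M-phase list placed 4 KLF5 peaks in the stretch. On chromosome 4 the longest KLF5-free stretch, chr4:26195330-37363565, measured 11.2 Mb and held 38 RAD21 and 27 CTCF peaks. The longest stretch without an S-phase HNF4A peak was shorter, 7.27 Mb at chr13:60227754-67495592, with 16 RAD21 and 13 CTCF peaks and 2 M-phase HNF4A peaks. These stretches were chosen after the values were seen. The longest stretch without any S-phase peak of the 5 proteins was chr4:48730233-52391521, 3.66 Mb, which held 3 S-phase H3 peaks and no M-phase peak of the 5. On chromosomes 13 and 18 such stretches reached 1.96 Mb (chr13:61984939-63943923) and 1.97 Mb (chr18:14969542-16944528). At the other end, the densest 1-Mb window, chr18:3001120-4001119, held 84 peaks (25 RAD21, 23 HNF4A, 19 CTCF, 9 KLF5 and 8 MYC) and 40 in M phase. The densest windows of chromosomes 4 and 13 held 83 peaks (chr4:37001586-38001585) and 66 peaks (chr13:72115682-73115681). Among the 22 autosomes the densest window of each held from 66 to 173 peaks, and chromosome 13 had the lowest value.

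Most factor peaks had no M-phase counterpart and most RAD21 and CTCF peaks had one, on chromosomes 4, 13 and 18 as elsewhere. Kept means that the M-phase list of that protein had a peak overlapping the S-phase peak by at least 1 bp. HNF4A kept 12.0% (176 of 1467) against 12.3%, a difference of -0.331 points (-1.99 to 1.51), and 12.3% over all chromosomes. KLF5 kept 11.3% (44 of 390) against 11.4% (-3.07 to 3.45 points, 11.4% over all chromosomes), and MYC 10.9% (98 of 899) against 12.8% (-3.87 to 0.398 points, 12.6% over all chromosomes). RAD21 kept 70.2% (1856) against 69.8% (0.420 points, -1.44 to 2.23, 69.7% over all chromosomes). None of these 4 intervals excludes 0, although the RAD21 difference standardised over 10 groups of score was 1.63 points (0.0765 to 3.18). CTCF kept 68.1% (1603) against 70.2%, a difference of -2.14 points (-4.13 to -0.207), with 69.4% over all chromosomes. The interval includes 0 without chromosome 4 or without chromosome 13 (-1.83 points). Its sign turned to 2.75 points when peaks of equal S-phase score were compared, and to 1.33 points with an overlap of 50% of both peaks, whereas it grew to -5.66 points with scores of at least 100 and to -8.41 points with an FDR under 5%. RAD21 turned to -2.41 and -1.52 points under the same limits. H3 kept 6 of 277 peaks, or 2.17%, against 2.93% (2.83% over all chromosomes).

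**Figure D5:**
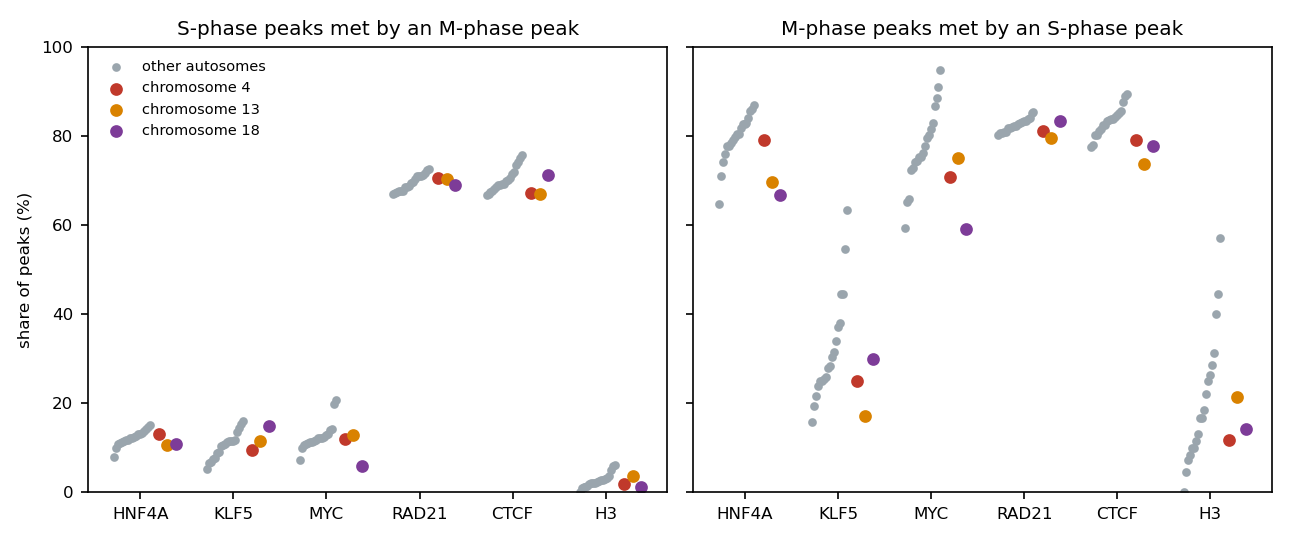
Share of S-phase peaks overlapped in the target's own M-phase list (left) and of M-phase peaks met by an S-phase peak (right), in percent, per autosome; grey points are the 19 other autosomes sorted by value and coloured points are chromosomes 4, 13 and 18. On the left the coloured points lie near or within the grey ranges, for RAD21 at 70.2% and for HNF4A at 12.0% over the 3 chromosomes, with chromosome 18 lowest for MYC; on the right chromosome 13 lies lowest for CTCF.

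The near-equal RAD21 share was made of 2 unequal parts. RAD21 peaks that carried CTCF in S phase were kept in 84.2% on chromosomes 4, 13 and 18 (1535 of 1822) against 81.1%, a difference of 3.17 points (1.34 to 4.87). RAD21 peaks without CTCF were kept in 39.1% (321 of 821) against 31.7%, a difference of 7.43 points (3.92 to 11.03). Both kinds were thus kept more often there, while the less durable kind made up more of the RAD21 peaks. With scores of at least 100 the first difference was 1.404 points (-1.23 to 3.86). This split was chosen with the data known, and under its alternatives the second difference ran from 3.48 to 8.52 points, with 1 of 5 intervals including 0. HNF4A peaks at RAD21 or CTCF were kept in 17.2% (50 of 291) against 12.7% (0.378 to 9.33 points), and HNF4A peaks away from both in 10.7% against 12.2% (-3.25 to 0.507 points). Without chromosome 4 the former difference was 1.56 points, and its interval excluded 0 in 1 of 4 alternatives.

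In the other direction, fewer M-phase CTCF peaks on these chromosomes had an S-phase counterpart, and the HNF4A and KLF5 shares were lower by margins that rested on the settings. For CTCF the share was 77.5% (1629) against 83.4%, a difference of -5.92 points (-7.82 to -4.11), with 82.8% over all chromosomes. Among peaks of equal M-phase score it was -2.86 points (-4.58 to -1.14), and with an overlap of 50% of both peaks -0.730 points (-2.93 to 1.43). Chromosome 13, at 73.8%, lay below the lowest other autosome. For HNF4A it was 74.3% (176 of 237) against 80.7% (-6.47 points, -12.6 to -1.04, 79.9% over all chromosomes) and for KLF5 24.0% (46 of 192) against 33.2% (-9.27 points, -15.2 to -2.44, 32.3% over all chromosomes). Standardised for score these became -2.82 points (-7.88 to 2.23) for HNF4A and -6.46 points (-11.9 to -1.01) for KLF5. Both intervals also include 0 without chromosome 13 (-5.04 and -6.36 points) and with an overlap of 50% of both peaks (-1.92 and -1.62 points), and that of HNF4A without chromosome 18 (-4.39 points). RAD21 gave 81.2% (1853) against 82.4% (-3.01 to 0.368 points, 82.0% over all chromosomes), or 0.391 points standardised for score. MYC gave 70.2% (99 of 141) against 76.8% (-14.8 to 0.667 points, 76.3% over all chromosomes). The KLF5 list also shortened less here than elsewhere, with 0.492 M-phase peaks per S-phase peak against 0.348, a ratio of 1.41 (1.18 to 1.69). Chromosome 13 stood highest of the 22 autosomes at 0.744, while chromosomes 4 and 18, at 0.398 and 0.495, lay within the range of the others (0.185 to 0.525). For the other 4 proteins the intervals of this ratio include 1. An FDR under 5% was reached by 28 of the 192 M-phase KLF5 peaks here and by 367 of the 1914 elsewhere. All S-phase KLF5 peaks reached it, 390 here and 5495 elsewhere. Most M-phase KLF5 peaks behind the ratio of 1.41 thus had a higher FDR. At that limit the KLF5 density ratios of the 2 phases lay close together, at 0.473 in S phase and 0.508 (0.333 to 0.747) in M phase. The larger KLF5 number in M phase here was therefore not seen among peaks with an FDR under 5%.

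CTCF peaks on these chromosomes also had lower scores and fewer tags within their list. The median S-phase CTCF score, which is -10 times the log10 of the caller's p-value, was 133 against 163, and the median peak held 35 tags against 44. Chromosomes 4, 13 and 18 held 8.49% of the autosomal CTCF peaks but 3.79% of the strongest 10% by score. For RAD21 the shares were 9.95 and 6.70%, for MYC 7.64 and 5.95%, for HNF4A 9.64 and 8.15% and for KLF5 6.63 and 5.78%. The median HNF4A score was nearly level, at 96.8 against 97.3. The median fold enrichment over the control, as the authors' caller gave it, was lower for CTCF (14.25 against 15.2). It was higher for HNF4A (10.3 against 9.56), KLF5 (8.71 against 8.33), MYC (8.99 against 8.74) and RAD21 (11.3 against 10.9). At sites kept with 1 peak in each phase, CTCF fell from 5.58 to 2.11 tags per 1000000 library tags on chromosomes 4, 13 and 18 (1570 sites) and from 7.45 to 2.47 elsewhere. RAD21 went from 3.05 to 2.42 (1844 sites) and from 3.58 to 2.60. HNF4A went from 4.76 to 1.37 (176 sites) and from 5.83 to 1.55. The median M-to-S ratio at these sites was 0.371 against 0.326 for CTCF, 0.776 against 0.741 for RAD21 and 0.290 against 0.274 for HNF4A.

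The strongest individual sites show what was kept and what was not (hg18 coordinates; no gene was assigned). The kept HNF4A peak of highest fold enrichment was chr4:88075230-88077577, with 140 tags and a 75.3-fold enrichment in S phase. Its M-phase peak had 43 tags. KLF5, MYC and RAD21 peaks overlapped it in S phase, and MYC and RAD21 peaks in M phase. On chromosome 18, HNF4A (chr18:3250953-3252609) and KLF5 (chr18:3251072-3252660) shared a site that both kept, with 153 and 56 tags for HNF4A and 89 and 37 tags for KLF5 in S and M phase. It lies in the densest window of that chromosome. The strongest kept MYC peak, chr13:90799210-90800297, had 85 and 57 tags and lay on a CTCF peak in both phases. Its 71.4-fold enrichment ranked 4 among all S-phase MYC peaks. The strongest kept CTCF peak, chr18:12261240-12262864, went from 229 to 94 tags, and the strongest kept RAD21 peak, chr18:17278065-17279060, held 57 and then 96 tags with CTCF in both phases. The M-phase RAD21 library had more tags in all, 16510005 against 7531890.

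Other strong sites had no M-phase peak within 1000 bp. The HNF4A peak at chr4:90392856-90394560 had 88 tags and a 39.5-fold enrichment on an S-phase CTCF peak. The MYC peak at chr4:166252307-166253914 had 78 tags and a 49.0-fold enrichment where all 4 other proteins were bound. Its RAD21 and CTCF neighbours were present in M phase. The KLF5 peak at chr4:38350439-38352673 had 104 tags and lay with HNF4A and MYC, none of which had an M-phase peak there. Peaks found in M phase alone differed in strength. The leading HNF4A peak of that kind, chr18:43230186-43230848, had 15 tags and a deposited FDR of 100%, while the leading RAD21 one, chr18:4058107-4059237, had 49 tags, an FDR of 0.04% and CTCF in both phases. An FDR under 5% was reached by none of the 237 M-phase HNF4A peaks on these chromosomes and by none on the other autosomes.

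Most of the richest S-phase sites had no factor peak in M phase, and they held RAD21 and CTCF peaks to differing degrees. The 8584-bp site chr4:187880802-187889385 held 8 peaks of the 5 proteins, with 130 MYC, 92 HNF4A and 39 KLF5 tags. In M phase it held 2 RAD21 peaks with 149 tags and 1 CTCF peak with 50 tags, and no factor peak. The site chr18:18000051-18007279 also held 8 peaks, with 165 MYC, 92 HNF4A and 83 KLF5 tags, and again only RAD21 and CTCF peaks in M phase. On chromosome 13 the richest site, chr13:74952616-74955570, was different, since its MYC peak was found again, with 106 tags before and 39 in M phase. Of the 9 sites taken by the same rule, 3 per chromosome, 2 held a factor peak in M phase, both on chromosome 13, and 6 held RAD21. All 9 held CTCF.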

How the data were processed

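ChIP-seq peaks of 6 targets in S-phase and M-phase LoVo cells were analysed from 12 deposited lists, with 4 IgG libraries as controls. Per the submitters' processing notes, CASAVA 1.4 and BWA were used, with build hg18. Per the file headers, peaks were called with MACS 1.4.0rc2 against IgG, with a p-value cutoff of 1e-05. Per the file headers, ChIP libraries held 7362169 to 16813394 filtered tags, which limits the precision of weak peaks. Tags per peak were deposited as raw counts. Peak scores, as deposited, are the caller's p-value as -10 log10. Fold enrichment, as deposited, is a ratio to the modelled control. The deposited FDR is a percent. Scores and fold values are the authors' and were compared within a list, apart from a score minimum of 100 applied to each list.

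Samples were grouped by their titles. Peaks on chromosomes 4, 13 and 18 and the comparisons were chosen with earlier results of these data known. Density is peaks per Mb between the first and last peak of the 12 lists on a chromosome. RefSeq gene numbers per chromosome come from GRCh38.p14 and carry no coordinates. Tools were scipy 1.17.1, pandas 2.3.3 and numpy 2.4.6 under Python 3.11.15, with matplotlib 3.10.9. Shares and density ratios have exact (Clopper-Pearson) and differences Newcombe intervals. Standardised differences compare peaks within 10 groups of score, which is the S-phase score for kept peaks and the M-phase score in the other direction. Simulated data served to check the density, overlap and standardisation steps. Named regions are those of highest fold enrichment that were kept, S-phase only or M-phase only, away from H3 peaks, the sites with most proteins and peaks, and the emptiest and densest stretches; a part of them is named. No hg18 genome or annotation was used here, so no gene was assigned and no sequence is printed. Alternatives covered score and FDR limits, overlap rules, peaks at H3, the length behind the density, gap sizes, the comparison chromosomes and each chromosome left out; those on site makeup were added after the data were seen.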

Additional observations from a re-analysis of the deposited data

How the results depend on the processing

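Of the alternatives to the main comparisons, 404 stayed within the 95% interval of the main value and 68 moved beyond it. Another 11 turned direction from a main value whose interval excluded no difference. Changes of sign around main values whose intervals include no difference were not counted as turns and stand among the 404 and 68. With 141 to 237 M-phase peaks per factor on these chromosomes, differences of a few points were not detectable. Without the scaling per H3 peak, all 122 alternative values of the 14 density ratios were below 1, as were the 14 main values. Per H3 peak, the ratios in S phase were 1.13 (HNF4A), 0.753 (KLF5), 0.878 (MYC), 1.17 (RAD21), 0.985 (CTCF) and 0.971 for the 3 factors. In M phase they were 1.46, 1.31, 1.02, 1.48, 1.26 and 1.27 in the same order. This alternative divides by the H3 list, which is itself short on these chromosomes.

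With scores of at least 100, density ratios in S phase were 0.409 for KLF5, 0.502 for MYC, 0.565 for CTCF and 0.582 for the 3 factors. The M-phase ones were 0.579 for HNF4A, 0.715 for RAD21, 0.562 for CTCF and 0.532 for the 3 factors. CTCF per RAD21 gave 0.782 and, for M phase, 0.786, and M-phase factors per RAD21 gave 0.743. RAD21 at CTCF differed by -12.8 points in S phase and -11.2 in M phase. RAD21 at any factor gave -2.69 and -0.328 points, and CTCF at any factor -3.47 and -0.586. Distance ratios were 4.28 for KLF5 and 2.25 for MYC in S phase and, for M phase, 4.76 for KLF5 and 1.96 for CTCF in M phase. Sites of 2 or more proteins gave 0.584 and, for M phase, 0.586, and S-phase sites of 3 or more gave 0.362. The kept shares of CTCF and RAD21 differed by -5.66 and -2.41 points.

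With an FDR under 5%, the S-phase CTCF density ratio was 0.567. In M phase the density ratios were 0.508 for KLF5, 0.683 for MYC, 0.716 for RAD21, 0.480 for CTCF and 0.539 for the 3 factors. Balances were 1.07 for the 3 factors per CTCF and 0.770 for CTCF per RAD21 in S phase, and 1.12, 0.669 and 0.752 (3 factors per RAD21) in M phase. RAD21 at CTCF differed by -12.4 and -13.2 points in S and M phase, and in M phase RAD21 and CTCF at any factor by -0.221 and -0.400. Sites of 2 or more proteins gave 0.603. Kept shares differed by -8.41 points for CTCF and -1.52 for RAD21. M-phase MYC per CTCF turned from 0.805 to 1.43, on 8 MYC peaks. No M-phase HNF4A value exists at this limit, since no peak was left.

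Against the other autosomes without 16, 17, 19 and 22, density ratios were 0.552 for KLF5, 0.618 for MYC, 0.658 for CTCF and 0.665 for the 3 factors in S phase and 0.677 for CTCF in M phase, and the 3 factors per RAD21 gave 0.878. Without 5, 7, 12 and 15, which LoVo is known to carry in extra or rearranged copies, the M-phase H3 ratio was 0.726. Copy number was not measured here. With an overlap of 50% of both peaks, the kept CTCF share differed by 1.33 points, and RAD21 at CTCF and CTCF at RAD21 by -2.95 and 7.47. Standardised for score, the kept CTCF share differed by 2.75 points. Without gaps over 1 Mb, distance ratios were 1.76 for KLF5 in S phase, and in M phase 0.879 for HNF4A, 1.07 for KLF5, 1.05 for MYC and 0.537 for H3. With all gaps these M-phase ratios were 1.53, 1.98, 2.53 and 1.57. The M-phase gaps so left out were 43.6, 56.6, 56.5 and 82.9% on chromosomes 4, 13 and 18. On the other autosomes they were 33.9, 38.7, 34.9 and 72.0%. The cause of these shifts was not tested. With each chromosome left out in turn, ranges were 0.550 to 0.790 for the S-phase H3 density ratio, 0.625 to 0.794 for M-phase KLF5, -11.3 to -4.58 points for KLF5 at RAD21 or CTCF, -10.6 to -7.07 for RAD21 at CTCF, 2.89 to 5.55 for CTCF at RAD21, and 1.03 to 1.22 for sites of RAD21 alone.

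No paired analysis was possible because each target had 1 library in each phase.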
